A study of Mus musculus with 17 samples.

Results

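The cadherin and protocadherin genes of the mouse were described across sorted brain cells and whole cortex. Members were all gene symbols made of Cdh and a number, or starting with Pcdh, without Cdh5, the endothelial cadherin. They numbered 91 of the 21640 gene symbols in the count matrix. They comprised 17 classical cadherins (5 of type I and 12 of type II), 5 atypical cadherins, 12 non-clustered protocadherins (9 delta protocadherins and 3 others) and 57 clustered protocadherins (13 in the alpha, 22 in the beta and 22 in the gamma cluster). The samples were 17 RNA-seq libraries of adult mice. Arteriolar smooth muscle cells (aSMCs), which ring the small arteries of the brain and set their diameter, were sorted from cerebral arterioles of SMACreER:Ai47 mice (6 libraries, Ai47 aSMCs) and of SMACreER:Ai14 mice (2 libraries, Ai14 aSMCs). Astrocytes were sorted from the cortex of hGFAPCreER:Ai14 mice (3 libraries), and homogenized cerebral cortex came from WT mice by the labels (6 libraries), whereas the study's text describes it as part of the dissociated cortices kept back before the sort. In the sorted groups a tamoxifen-inducible Cre, driven by the smooth muscle actin promoter or by a human GFAP promoter, switched on a fluorescent reporter, so the cells that each promoter marked define the group. Sex was not given, nor was age in the labels. The labels tied no library to an animal. A legend of the study gives as many mice for sorted aSMCs and for cortex as there are Ai47 aSMC and cortex libraries, without saying which library came from which mouse and with no such figure for astrocytes, so the tests below measure the spread between libraries, which may in part be technical. Reporter line, sort and tissue differ together between the groups and cannot be told apart.

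Classical cadherins are single-pass membrane proteins whose extracellular repeats bind calcium and the same cadherin on the neighbouring cell, and whose tails hold catenins that link the junction to actin. Non-clustered protocadherins lack the catenin-binding tail and adhere weakly, with signalling roles that differ between members. Clustered protocadherins lie in arrays. In the alpha and gamma clusters these are alternative first exons, and in the beta cluster they are genes without a shared constant exon. Each neuron uses a few, and the combination displayed on the surface lets a neuron tell its own branches from those of others. In vessels, N-cadherin (Cdh2) is known from contacts between mural cells and endothelium, and in the cortex it is known from synapses and from radial glia.

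The 4 groups differed in depth and in RNA composition. Library totals were 41499087 to 53643624 counts in Ai47 aSMCs, 14870507 and 14979228 in Ai14 aSMCs, 4537137 to 7390630 in astrocytes and 5397905 to 7288036 in cortex. Mitochondrial genes took 0.214% to 0.559%, 16.8% to 17.6%, 10.7% to 12.5% and 35.7% to 72.9% of the counts in the same groups. Smooth muscle markers (8 of 8 with counts) summed to 6063 to 7290 CPM (counts per 1000000 counts of the library total times its TMM factor) in Ai47 aSMCs and 9405 and 10134 in Ai14 aSMCs, against 40.4 to 161 in cortex, so both aSMC labels held. Markers of other cell types had counts in them as well. The 7 fibroblast and meningeal markers summed to 1544 to 2369 CPM in Ai47 aSMCs (Pdgfra at 0) and 110 and 152 in Ai14 aSMCs, against 15.7 to 42.2 in cortex, and the 7 pericyte markers to 2629 to 5706 and to 6937 and 10139 CPM, against 255 to 715. The 12 neuron markers summed to 29.7 to 77.4 CPM in Ai47 aSMCs (Syn1, Rbfox3 and Slc17a7 at 0), 71.5 and 72.1 in Ai14 aSMCs and 84.0 to 124 in astrocytes, against 1103 to 1555 in cortex. The 12 endothelial markers summed to 330 to 545 CPM in Ai47 aSMCs, 328 and 364 in Ai14 aSMCs and 590 to 1342 in astrocytes, against 341 to 1177 in cortex. By the test used below, 1 of the 12 was higher and 6 lower in Ai47 aSMCs than in cortex (24.1% and 26.5% of all tested genes). In astrocytes 2 were higher and 10 lower (14.6% and 19.8%), with a median log2 fold change of -6.97. In these 2 groups the sum therefore does not stand for most of these markers. In Ai14 aSMCs 0 were higher and 0 lower than in cortex (5.97% of all tested genes called), with a median of -1.27. The 10 astrocyte markers summed to 1186 to 1892 CPM in Ai47 aSMCs, 177 and 253 in Ai14 aSMCs and 1262 to 1917 in the astrocyte libraries (Gjb6 at 0 in all 3), against 3398 to 18492 in cortex. The Ai47 and astrocyte libraries overlapped in this sum but not in most of its markers. In Ai47 aSMCs 3 were higher and 6 lower than in astrocytes (26.1% and 23.8% of all tested genes), with a median log2 fold change of -3.48. Against cortex 2 were higher and 7 lower there. Of the 5 fibroblast and meningeal markers tested, 2 were higher and 1 lower in Ai47 aSMCs than in cortex. The part of these cells in the results below was not tested. The 6 ependymal and choroid plexus markers summed to 581 to 2454 CPM in the astrocyte libraries, against 13.2 to 1689 in cortex, and Foxj1, the master regulator of motile cilia, had 237 to 525 CPM there, against 0 to 1.43 in cortex. Of the 10 astrocyte markers, 2 were higher and 2 lower in these libraries than in cortex (14.6% and 19.8% of all tested genes). Their median log2 fold change was -0.51. Of the 6 ependymal and choroid plexus markers, 4 were higher and 0 lower, with a median of 7.96. The astrocyte markers as a set thus did not set these libraries above cortex and did not bear out the label. Below, "astrocyte" means the library label.

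The 6 Ai47 libraries shared an unusual count pattern that bears on every comparison with them. Of the 66 tested members with any count in Ai47 aSMCs, 21 (31.8%) had the same count, 0 included, in at least 5 of the 6 libraries, against 6.32% of all tested genes, and in cortex this held for 2.90% of the tested members. For 7 of the 66 (10.6%) the shared count was above 0, against 2.29% of all tested genes. Cdh19 had exactly 1 count in each of the 6. At the same time 28 of the 66 (42.4%) drew over 80% of their Ai47 CPM from a single library, against 10.2% of all tested genes. Members with counts in only 1 of the 6 libraries enter both this figure and the 31.8%. Each comparison with Ai47 aSMCs was therefore also run with the 6 libraries summed into 1, and the calls that held are named. With 1 Ai47 library the spread comes from the other groups, and power falls for every gene. The share of all tested genes called in that fit was not computed. Calls lost there can therefore not be read as particular to the members.

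Summed over the family, members took 622 ± 60.5 CPM in Ai47 aSMCs (SD, n = 6), 802 ± 51.5 in Ai14 aSMCs (n = 2), 595 ± 111 in astrocytes (n = 3) and 526.3 ± 97.8 in cortex (n = 6). The composition differed. Non-clustered protocadherins made up 54.3% of the family's CPM in Ai47 aSMCs, 63.0% in Ai14 aSMCs, 9.26% in astrocytes and 44.96% in cortex, and clustered protocadherins 10.4%, 17.5%, 68.6% and 38.5%. In CPM the clustered sum was 48.3 to 91.5 in Ai47 aSMCs, 129 and 152 in Ai14 aSMCs and 272 to 615 in astrocytes, against 139 to 263 in cortex, and the Ai47 libraries lay below every library of the other groups. Non-clustered protocadherins gave 315 to 364 CPM in Ai47 aSMCs, 447 and 564 in Ai14 aSMCs and 28.6 to 108 in astrocytes, against 144 to 295 in cortex. On this scale both aSMC groups lay above every cortex and astrocyte library. The classical cadherins overlapped between Ai47 aSMCs (79.3 to 299 CPM), astrocytes (25.0 to 137) and cortex (38.8 to 126), whereas the Ai14 libraries at 140 and 161 CPM lay above cortex. No test was run on these sums. They rest on TMM factors of 0.423 to 0.551 in Ai47 aSMCs, 2.21 in Ai14 aSMCs, 1.52 to 2.68 in astrocytes and 0.697 to 1.87 in cortex. Scaling by library totals alone would lower the Ai47 sums against all other libraries. The order given for non-clustered protocadherins would then not hold for Ai47 aSMCs against cortex, and that for classical cadherins can change. Sums on that scale are not given here. In bulk RNA, fewer cells of a type and less RNA per cell cannot be told apart.

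**Figure D1:**
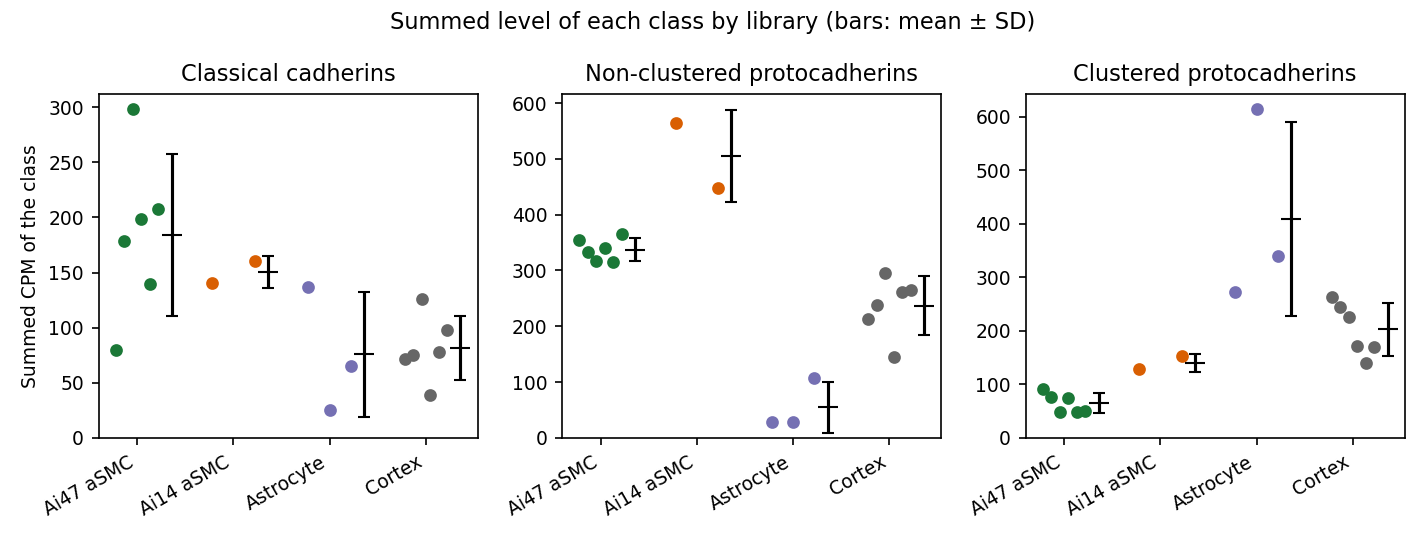
Summed CPM (vertical axes, linear from 0) of the classical cadherins, the non-clustered and the clustered protocadherins in each library of the 4 groups, with mean ± SD. In the clustered panel the 6 Ai47 aSMC libraries sit between 48.3 and 91.5, below all others, and astrocytes reach 615.

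Per kilobase of exon, which allows genes to be compared, different members led in each group. In Ai47 aSMCs these were Pcdh7 (22.4 CPM per kb), Cdh4 (16.4) and Pcdh18 (15.9). Pcdh1 (34.7), Pcdh18 (28.9) and Cdh6 (11.02) led in Ai14 aSMCs. In astrocytes the highest were Cdh26 (17.05), Pcdhb18 (12.6) and Pcdhga12 (10.3), and in cortex they were Pcdhgc3 (10.7), Pcdh1 (4.603) and Pcdh10 (3.77). Without astrocyte replicate 2, which carried 95.6% and 88.1% of their astrocyte CPM, Pcdhb18 and Pcdhga12 stood at 0.832 and 1.85 CPM per kb. Only Pcdh18 was among the leading 3 of both aSMC groups. Of the 91 members, 70 passed the filter on low counts. Those left out were 3 type I cadherins (Cdh1, Cdh3 and Cdh15), 3 atypical cadherins (Cdh16, Cdh17 and Cdh23), the delta protocadherin Pcdh8, 8 of the alpha and 6 of the beta cluster.

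Against cortex, 37 of the 70 tested members passed the test in Ai47 aSMCs (edgeR quasi-likelihood test, Benjamini-Hochberg adjusted p under 0.05 over 14927 genes), beside 50.6% of all tested genes, so the share called was near the background. Of these 5 were higher (background 24.1%) and 32 lower (background 26.5%), and the median log2 fold change of the tested members was -2.95, against -0.16 over all tested genes. With members that have a group at 0 set to the bound that 3 counts allow, the median was -2.79. With the 6 Ai47 libraries summed into 1, 6 members passed, namely Cdh4 and Pcdh18 higher and Pcdh1, Pcdh10, Pcdhgb1 and Pcdhgc3 lower. In Ai14 aSMCs 4 of 70 passed (background 5.97%), 3 higher (background 3.97%) and 1 lower (background 2%), and that balance turned with the method. With DESeq2 size factors in edgeR 2 were higher and 2 lower, with DESeq2 2 were higher and 11 lower, and in a fit of only Ai14 aSMCs and cortex 3 were higher and 12 lower. In astrocytes 26 passed (background 34.5%), 8 higher (background 14.6%) and 18 lower (background 19.8%), with 8 higher and 9 lower when libraries were scaled by their totals alone. These 3 comparisons share the cortex libraries. The backgrounds belong to the main fit. None was computed for the other methods, here or below, so their counts of members have no background beside them.

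**Figure D2:**
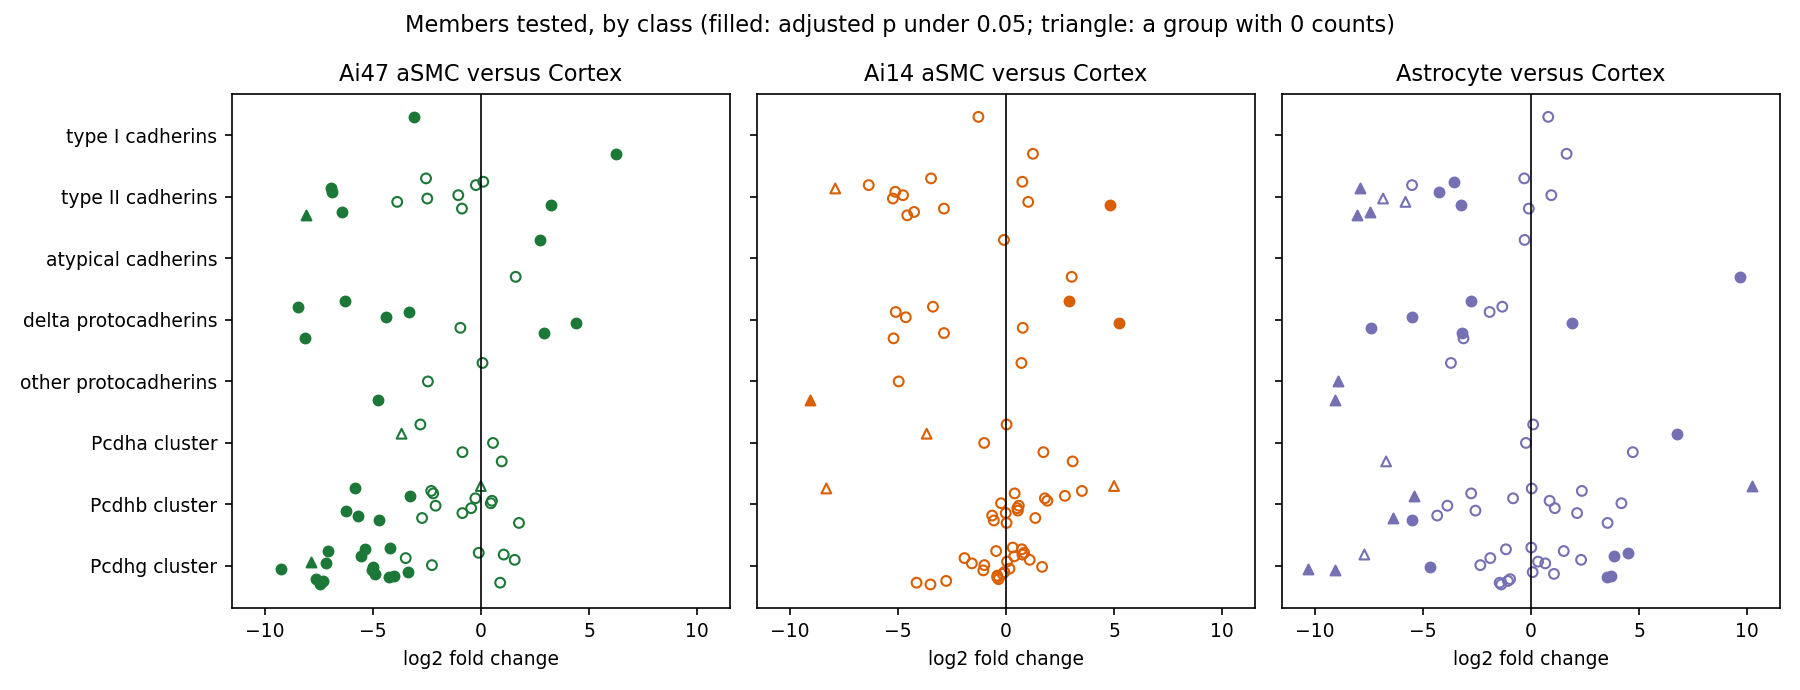
Log2 fold change (horizontal axes) of each of the 70 tested members in Ai47 aSMCs, Ai14 aSMCs and astrocytes, each against cortex, by class. Filled symbols passed the test (37, 4 and 26 members), open ones did not, and triangles mark members with a group at 0 counts, whose fitted value is no bound.

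Cdh6 and Pcdh18 were the only members higher than cortex in both aSMC groups. Pcdh18, a delta protocadherin (chr3:49743296-49757325, minus strand, GRCm38), had 19.9 to 148 CPM with a median of 79.6 in Ai47 aSMCs and 174 and 136 CPM in Ai14 aSMCs, against 2.58 to 5.54 with a median of 4.16 in cortex. Every aSMC library lay above every cortex library. The log2 fold change was 4.38 ± 0.65 (SE) in Ai47 aSMCs (adjusted p = 1.27e-05) and 5.24 ± 0.74 in Ai14 aSMCs (adjusted p = 0.000146), and both calls held when any 1 library was left out. Cdh6, also called K-cadherin, a type II cadherin (chr15:13028701-13173675, minus strand), had 6.10 to 69.4 CPM with a median of 33.0 in Ai47 aSMCs and 95.9 and 103 in Ai14 aSMCs, against 1.248 to 8.13 with a median of 2.61 in cortex. One Ai47 library, at 6.10 CPM, fell within the cortex range. The log2 fold change was 3.27 ± 0.82 in Ai47 aSMCs (adjusted p = 0.00244), with an adjusted p of 0.0514 when the Ai47 libraries were summed into 1, and 4.80 ± 0.98 in Ai14 aSMCs (adjusted p = 0.00424). The Ai14 call was lost without either Ai14 library, with an adjusted p of up to 0.0688, where the remaining library is assumed to vary like those of the other groups.

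The stretches of 250 bases upstream of the RefSeq start of these 2 genes (GRCm38.p6) are shown because both were higher in both aSMC groups. In astrocytes Cdh6 was called lower than cortex and Pcdh18 higher. The stretch of Cdh26, the leading member in astrocytes, is given for contrast. Capitals mark the motifs found in a search of both strands for 5 motifs. The first was the GC box GGGCGG. Next came TATAAA, the TATA box. The core of the RBPJ site was written TGGGAA. For forkhead factors GTAAACA was used, and the CArG box of serum response factor was searched by its usual pattern. Of all the matches, only the pair in Cdh6 overlapped, by 2 bases. Cdh6 lies at chr15:13173676-13173925 and Pcdh18 at chr3:49757317-49757566, both on the minus strand, and Cdh26 at chr2:178430265-178430514 on the plus strand.
Cdh6: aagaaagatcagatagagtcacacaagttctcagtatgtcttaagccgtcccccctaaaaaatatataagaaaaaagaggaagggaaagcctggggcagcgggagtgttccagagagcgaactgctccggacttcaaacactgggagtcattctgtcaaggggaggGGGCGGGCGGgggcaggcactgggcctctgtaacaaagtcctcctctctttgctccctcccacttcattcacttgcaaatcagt
Pcdh18: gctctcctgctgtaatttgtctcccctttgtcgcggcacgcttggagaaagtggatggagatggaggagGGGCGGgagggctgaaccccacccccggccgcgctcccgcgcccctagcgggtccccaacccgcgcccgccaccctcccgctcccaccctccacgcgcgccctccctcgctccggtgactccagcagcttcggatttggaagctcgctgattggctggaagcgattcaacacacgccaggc
Cdh26: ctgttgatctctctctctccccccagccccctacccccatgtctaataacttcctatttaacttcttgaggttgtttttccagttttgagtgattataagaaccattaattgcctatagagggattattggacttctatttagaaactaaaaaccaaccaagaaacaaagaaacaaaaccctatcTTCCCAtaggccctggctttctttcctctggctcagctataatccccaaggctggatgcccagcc
The Cdh6 window held 2 matches to GGGCGG and the Pcdh18 window 1, a motif found in 32.7% of the 32851 promoter windows of the same length in that table, and the Cdh26 window held 1 TGGGAA, here on the minus strand as TTCCCA, found in 21.6%. None of the 3 windows held TATAAA (12.4% of all windows), GTAAACA (3.17%) or a CArG box (1.47%). The GC content was 51.2% for Cdh6, 68.0% for Pcdh18 and 42.8% for Cdh26, against a median of 52.4% over all windows. A match describes these letters only.

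Among the type I cadherins, Cdh4 and Cdh2 stood on opposite sides in Ai47 aSMCs. Cdh4, or R-cadherin, first described in the retina (chr2:179442431-179899373, plus strand), had 39.8 to 237 CPM with a median of 104 in Ai47 aSMCs, against 0 to 4.79 with a median of 0.774 in cortex, and the groups did not overlap. Its log2 fold change was 6.23 ± 1.254 (adjusted p = 0.000355), with an adjusted p of 0.0135 when the Ai47 libraries were summed into 1. Ai14 aSMCs had 2.40 and 5.12 CPM of Cdh4, and astrocytes 14.9, 0 and 0. The sum of the fibroblast and meningeal markers was likewise highest in Ai47 aSMCs, though above cortex in both Ai14 libraries too, and the part of such cells in the Cdh4 level was not tested. Cdh2, or N-cadherin (chr18:16588877-16809246, minus strand), had 2.43 to 4.77 CPM with a median of 3.42 in Ai47 aSMCs, 11.99 and 12.6 in Ai14 aSMCs and 113, 12.1 and 30.02 in astrocytes, against 10.8 to 64.4 with a median of 28.7 in cortex. It was 3.11 ± 0.63 lower on the log2 scale in Ai47 aSMCs than in cortex (adjusted p = 0.000392), a call not kept with the libraries summed into 1 (adjusted p = 0.226). Neither Ai14 aSMCs nor astrocytes passed the test for Cdh2 against cortex. Cdh1, the epithelial E-cadherin, stayed at or under 0.606 CPM in every library.

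Of the 12 type II cadherins, 1 was higher (8.33%, background 24.1%; Cdh6) and 4 were lower (33.3%, background 26.5%; Cdh8, Cdh9, Cdh18 and Cdh19) in Ai47 aSMCs than in cortex, and in astrocytes 6 were lower (50%, background 19.8%) and none higher (background 14.6%). Over all 14 tested classical cadherins the counts in astrocytes were 6 lower and 0 higher with edgeR (9 at an unadjusted p under 0.05 in either direction), and 7 lower and 0 higher with DESeq2. Cdh11, or OB-cadherin, known from mesenchymal cells, did not separate aSMCs from cortex. It had 8.20 to 38.1 CPM with a median of 16.97 in Ai47 aSMCs and 28.3 and 34.8 in Ai14 aSMCs, against 2.65 to 42.7 with a median of 12.3 in cortex, with a log2 fold change of 0.11 ± 0.88 in Ai47 aSMCs (adjusted p = 0.93). Against astrocytes, which had 0, 0.127 and 4.497 CPM, it was higher in Ai47 aSMCs by 3.66 ± 1.32 (adjusted p = 0.0261; 0.0553 without astrocyte replicate 2; 0.112 with the Ai47 libraries summed). Cdh19, expressed in glia of the nerve sheath and of the oligodendrocyte lineage, had 0.0364 to 0.0570 CPM in Ai47 aSMCs, 0.0913 and 0.242 in Ai14 aSMCs and 0.281, 0 and 0.606 in astrocytes, against 2.97 to 12.7 with a median of 4.76 in cortex. The 10 oligodendrocyte lineage markers were likewise highest in cortex, at 248 to 463 CPM in Ai47 aSMCs, 482 and 652 in Ai14 aSMCs and 96.5 to 302 in astrocytes, against 3618 to 11788 in cortex, and their part in the Cdh19 level was not tested. The log2 fold change in Ai47 aSMCs was -6.89 ± 1.04 (adjusted p = 1.52e-05; 0.114 with the libraries summed). Cdh9 had 0 counts in all 6 Ai47 libraries and was at least 92.2-fold lower there than in cortex, by the floor of 3 counts over the group (adjusted p = 0.00282). Cortex replicate 6 carried 76.9% of its cortex CPM, and without that library the bound was 25.6-fold. For Cdh8 and Cdh18, with 1 Ai47 count each, cortex over Ai47 aSMCs gave ratios of 161 (95% Clopper-Pearson interval 27.7 to 6502) and 184 (31.7 to 7395), where the intervals cover counting error only (adjusted p = 0.000974 and 0.00191). Without cortex replicate 6 these ratios were 99.2 and 62.5. The calls for these 3 were not kept with the Ai47 libraries summed into 1 (adjusted p = 0.204 to 0.309).

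Of the atypical cadherins, Cdh13 and Cdh26 could be tested. Cdh13, or T-cadherin, is anchored by a lipid in place of a cytoplasmic tail and binds adiponectin. It had 0.445 to 121 CPM with a median of 18.98 in Ai47 aSMCs, 5.08 and 4.73 in Ai14 aSMCs and 0.0936, 0.127 and 12.4 in astrocytes, against 1.134 to 8.60 with a median of 5.98 in cortex. The Ai47 libraries straddled the cortex range, and Ai47 replicate 1 carried 58.7% of the CPM. Its log2 fold change against cortex was 2.72 ± 1.09 (adjusted p = 0.0433), lost without Ai47 replicate 1 or cortex replicate 1, 5 or 6 (adjusted p up to 0.141) and with the Ai47 libraries summed (0.247). Cdh26, known from epithelia, had 82.1, 54.4 and 17.5 CPM in astrocytes, against 0.517 in 1 and 0 in 5 of the cortex libraries. All 3 astrocyte libraries lay far above the rest, with 0.0364 to 0.774 CPM in Ai47 aSMCs and 0.304 and 0.727 in Ai14 aSMCs. Pooled counts gave astrocytes over cortex a ratio of 938 (95% Clopper-Pearson interval 259 to 7754), from 1652 counts in astrocytes and 2 in cortex (adjusted p = 7.24e-05, kept without any 1 library). The ratio was 610 without astrocyte replicate 1 and 1532 without astrocyte replicate 3. The same 3 libraries carried the ependymal markers above, and the part of such cells in the Cdh26 level was not tested.

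**Figure D3:**
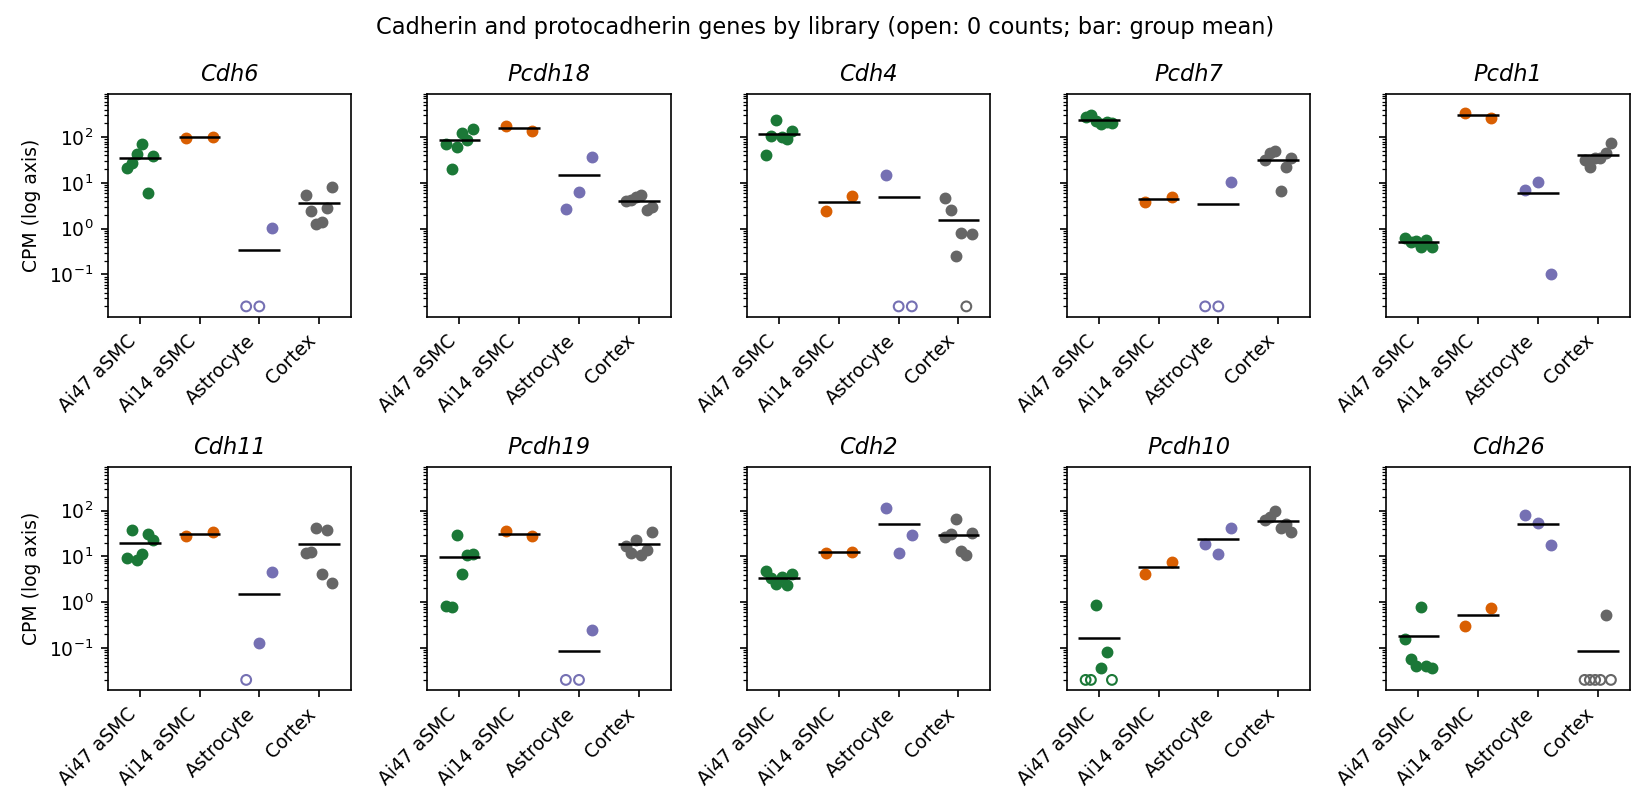
CPM (vertical axis, log scale) of 10 classical, atypical and delta members in each library of the 4 groups. Open circles at the foot are libraries with 0 counts and bars are group means. Cdh6 and Pcdh18 are high in both aSMC groups, Cdh4 and Pcdh7 in Ai47 aSMCs and Pcdh1 in Ai14 aSMCs, and Cdh26 in astrocytes.

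Of the 8 tested delta protocadherins, 3 (37.5%, background 25.6%) were called between the 2 sets of aSMCs, namely Pcdh1, Pcdh7 and Pcdh10. Pcdh1, known from airway epithelium as a susceptibility gene (chr18:38185914-38212053, minus strand), had 0.400 to 0.629 CPM with a median of 0.520 in Ai47 aSMCs, against 343 and 267 in Ai14 aSMCs. Cortex lay between, at 22.6 to 73.7 with a median of 35.2, and none of the 3 ranges overlapped. Against cortex it was lower in Ai47 aSMCs by -6.30 ± 0.76 (adjusted p = 9.27e-07; 0.0441 with the libraries summed) and higher in Ai14 aSMCs by 2.91 ± 0.76 (adjusted p = 0.0262). The Ai14 call was lost when any 1 of the 8 libraries was left out (adjusted p up to 0.398), while both Ai14 values stayed above every cortex value. Tested directly, Pcdh1 was 9.22 ± 0.90 lower on the log2 scale in Ai47 than in Ai14 aSMCs (adjusted p = 4.80e-07; 0.0477 with the Ai47 libraries summed), and the call held without any 1 library. It was the only member with opposite calls in the 2 aSMC groups. Pcdh1 in astrocytes had 7.02, 10.7 and 0.101 CPM and was lower than cortex by -2.78 ± 0.85 (adjusted p = 0.0163).

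Pcdh7, also called BH-protocadherin, which binds protein phosphatase inhibitors in other cells (chr5:57717967-58133230, plus strand), behaved the other way round. It had 197 to 306 CPM with a median of 220 in Ai47 aSMCs, against 3.80 and 4.94 in Ai14 aSMCs. In counts the 6 Ai47 libraries were 5330 to 5618, a narrower span than their sizes. Cortex had 6.72 to 50.04 CPM with a median of 32.9, and astrocytes 0, 0 and 10.4. The log2 fold change was 2.90 ± 0.84 in Ai47 aSMCs against cortex (adjusted p = 0.00704; 0.147 with the libraries summed) and 5.76 ± 1.60 in Ai47 against Ai14 aSMCs (adjusted p = 0.0117). That last call was lost without either Ai14 library (adjusted p up to 0.118) and with the Ai47 libraries summed (0.128). Against astrocytes Pcdh7 was higher in Ai47 aSMCs by 6.07 ± 1.34 (adjusted p = 0.00102; 0.0174 summed).

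Pcdh19, the X-linked gene behind a female-limited epilepsy in humans, had 0.798 to 29.9 CPM with a median of 7.40 in Ai47 aSMCs and 35.1 and 28.2 in Ai14 aSMCs, against 10.9 to 34.2 with a median of 15.4 in cortex. It passed no test against cortex in aSMCs. In astrocytes it was nearly silent, with 0, 0 and 0.253 CPM and a log2 fold change of -7.39 ± 1.53 against cortex (adjusted p = 0.00122, kept without any 1 library), and both Ai47 (6.44 ± 1.47, adjusted p = 0.00129) and Ai14 aSMCs (8.16 ± 1.64, adjusted p = 0.00186) were above it. Pcdh10, or OL-protocadherin, known from axon growth, ran the opposite course. It had 0 to 0.852 CPM in Ai47 aSMCs, 4.08 and 7.49 in Ai14 aSMCs and 18.6, 11.2 and 41.9 in astrocytes, against 33.5 to 97.0 with a median of 57.1 in cortex. Every aSMC library lay below every cortex library, with a log2 fold change of -8.45 ± 1.134 in Ai47 aSMCs against cortex (adjusted p = 3.92e-06; 0.0026 with the libraries summed).

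The remaining delta protocadherins were at their highest in cortex. Pcdh9 had 0 to 0.210 CPM in Ai47 aSMCs, 0.639 and 0.667 in Ai14 aSMCs and 0.0936, 0 and 8.14 in astrocytes, against 5.86 to 47.8 in cortex, and Pcdh17, known from corticobasal ganglia circuits, had 0.182 to 9.36, 1.64 and 1.39, and 0, 0.127 and 2.22 CPM in the same groups, against 13.4 to 68.7 in cortex. Both of these, and Pcdh11x, were lower in Ai47 aSMCs than in cortex with all 6 libraries (adjusted p = 8.56e-05, 0.00386 and 0.0201) but not with them summed into 1 (adjusted p = 0.0884 to 0.338). In Ai14 aSMCs none of the 3 passed edgeR's test against cortex, although for all 3 both Ai14 libraries lay below the lowest cortex library. The share of all tested genes that DESeq2 called lower was not computed. With DESeq2, 7 of the 11 tested non-clustered protocadherins were lower in Ai14 aSMCs than in cortex, against 1 with edgeR (background 2%). That 1 was Pcdh20, with 0 counts in both Ai14 libraries and all 3 astrocyte libraries, 0.109 to 0.171 CPM in Ai47 aSMCs and 0 to 17.8 with a median of 1.30 in cortex. Cortex replicate 6 carried 75.9% of the cortex CPM. By the floor it was at least 85.7-fold lower in Ai14 aSMCs and at least 49.9-fold lower in astrocytes than in cortex (adjusted p = 0.0477 and 0.00816), and without cortex replicate 6 the bounds were 24.8-fold and 14.5-fold. In Ai47 aSMCs, whose values overlapped those of cortex, it was lower by -4.75 ± 1.30 (adjusted p = 0.00565; 0.43 with the libraries summed). The Ai14 call was lost without either Ai14 library or cortex replicate 1, 2 or 6 (adjusted p up to 0.385). Pcdh15, a tip-link protein of hair cells, had 0 counts in astrocytes and was at least 44.8-fold lower there than in cortex (adjusted p = 0.0167; 21.7-fold without the deepest, astrocyte replicate 3).

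The clustered protocadherins lie next to each other on chromosome 18 (GRCm38), the alpha cluster at 36930184 to 37187661, the beta cluster at 37264938 to 37524479 and the gamma cluster at 37661793 to 37841873. All alpha and all gamma genes end in constant exons that their cluster shares, so that 38.9% to 91.4% of the exon bases of each alpha gene and 31.5% to 66.8% of those of each gamma gene belong to other genes as well. The sources used here do not say how shared reads were split between genes, and single alpha and gamma values are uncertain. The beta genes have no shared constant exon, and 2 of 22 overlap another gene by over 1%.

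In Ai47 aSMCs 21 of 43 tested clustered genes (48.8%, background 26.5%) were lower than cortex and 0 higher (background 24.1%; 24 at an unadjusted p under 0.05 in either direction; 21 lower and 0 higher with DESeq2). The lower ones were 16 of 22 gamma (72.7%), 5 of 16 beta (31.2%) and 0 of 5 alpha genes, so the beta share was near the background of 26.5%. The median log2 fold change was -4.92 for gamma, -2.15 for beta and -0.85 for alpha genes (-4.92, -2.20 and -0.85 with zero-count groups at their bound), against -0.16 over all tested genes. With the 6 libraries summed into 1, 2 were called, Pcdhgb1 and Pcdhgc3. In Ai14 aSMCs 0 of the 43 passed against cortex with edgeR (background 5.97%; 4 at an unadjusted p under 0.05; 1 lower with DESeq2), with medians of -0.25 for gamma and 0.54 for beta genes, against 0.32 over all tested genes. Detection differed in the same way. From 5 to 11 clustered genes reached 10 counts in the Ai47 libraries, 39 to 40 in the Ai14 libraries, 8 to 28 in astrocytes and 11 to 30 in cortex. The effective library sizes (total times TMM factor) behind these counts were 17548642 to 27487359, 32854700 and 32991857, 7883232 to 19789637 and 3871499 to 12560589 in the same groups.

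**Figure D4:**
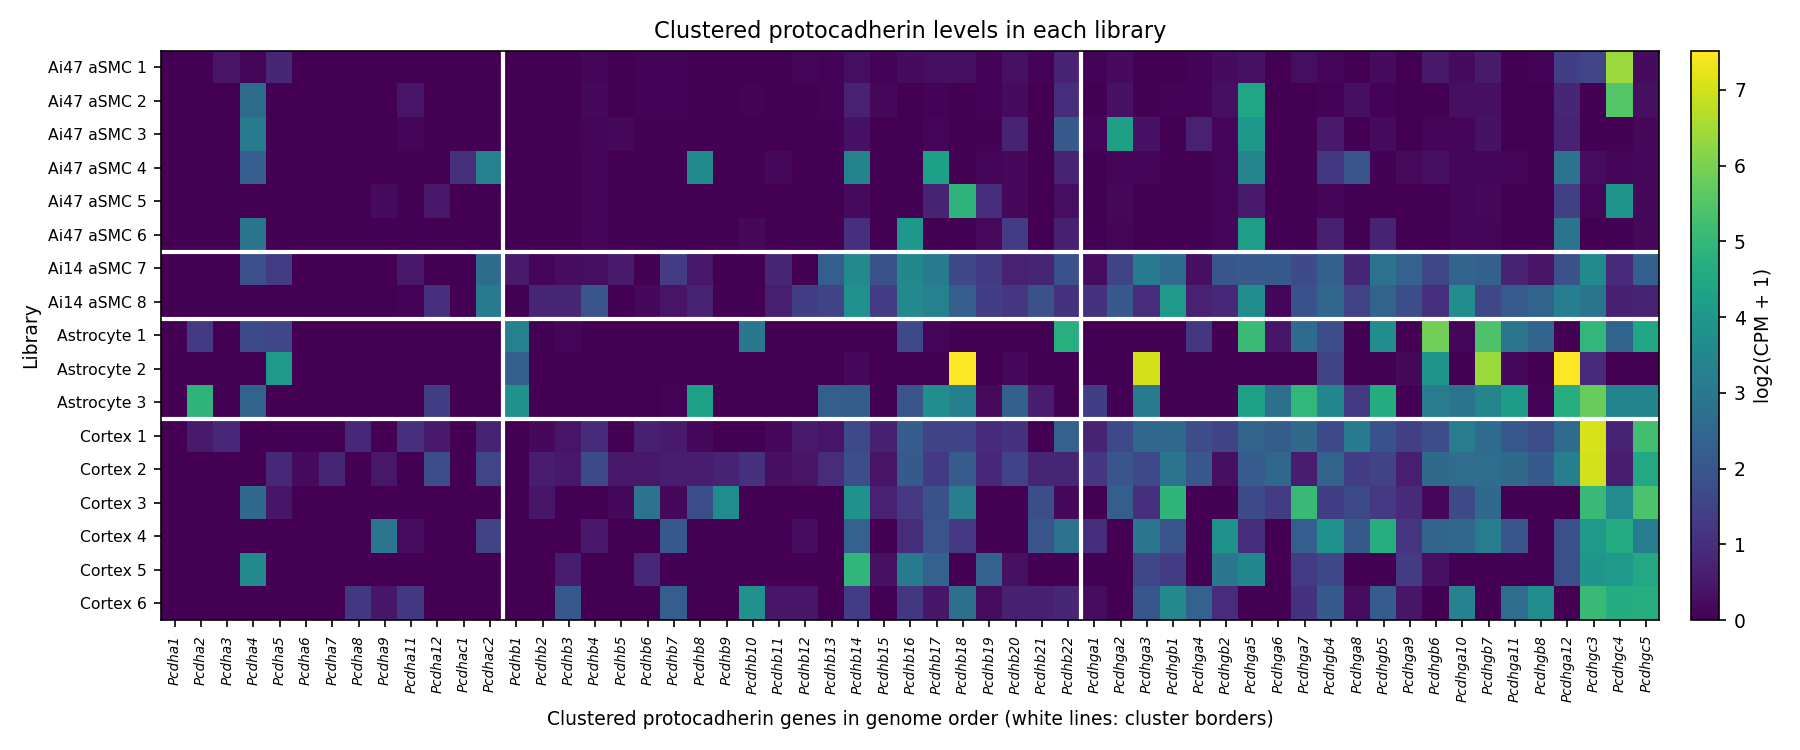
Level of each of the 57 clustered protocadherin genes (columns, in genome order, with white lines between clusters and between groups) in each of the 17 libraries (rows), as log2(CPM + 1). The Ai14 aSMC rows are filled across the beta and gamma clusters, Ai47 aSMC rows and the first 2 astrocyte rows show a few bright genes, and cortex rows lie between, with Pcdhgc3 and Pcdhgc5 bright.

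The C-type gamma genes, which in mice are known from the survival of interneurons, were among the highest gamma genes of cortex. Pcdhgc3 had 0 to 1.99 CPM with a median of 0.0404 in Ai47 aSMCs, 10.96 and 6.43 in Ai14 aSMCs and 30.2, 0.888 and 53.1 in astrocytes, against 14.2 to 131 with a median of 32.9 in cortex. All aSMC libraries lay below all cortex libraries, by -7.29 ± 1.39 in Ai47 aSMCs (adjusted p = 0.00021; 0.046 with the libraries summed). Pcdhgc5 had 0.109 to 0.228 CPM in Ai47 aSMCs, 3.90 and 0.697 in Ai14 aSMCs and 20.4, 0 and 9.40 in astrocytes, against 7.91 to 40.6 with a median of 23.6 in cortex (Ai47 against cortex -7.46 ± 1.09, adjusted p = 1.126e-05; 0.08 summed). Pcdhgc4 broke this pattern. It had 82.1, 44.6 and 13.9 CPM in Ai47 replicates 1, 2 and 5 and at most 0.0737 in the other 3 Ai47 libraries, 0.852 and 0.576 in Ai14 aSMCs and 4.40, 0 and 9.40 in astrocytes, against 0.478 to 24.01 in cortex, and it passed no test against cortex.

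Single A- and B-type gamma genes were patchy. Pcdhgb1 had 1 count over all 6 Ai47 libraries and 0 in the 3 astrocyte libraries, 5.24 and 15.5 CPM in Ai14 aSMCs and 1.55 to 29.3 with a median of 5.56 in cortex. Cortex over Ai47 aSMCs gave a ratio of 1401 (95% Clopper-Pearson interval 250.2 to 55472; adjusted p = 1.03e-05, 0.044 with the libraries summed), which was 787 without cortex replicate 3. Astrocytes were at least 118-fold lower than cortex (adjusted p = 0.000916), or 57.3-fold without astrocyte replicate 3, the deepest. Pcdhga5, in contrast, had 9.73 to 20.3 CPM in 4 of the Ai47 libraries and 0.262 and 0.445 in the other 2, 3.26 and 11.9 in Ai14 aSMCs and 34.2, 0 and 18.8 in astrocytes, against 0 to 10.3 in cortex, and was not called against cortex in any group. The level per library of each clustered gene is shown in the map of all 57.

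In astrocytes 6 clustered genes were higher (14%, background 14.6%) and 6 lower (14%, background 19.8%) than cortex, of 43 tested, so neither share was above the background. Pcdhb1, the first gene of the beta cluster, had 8.90, 4.06 and 13.2 CPM in astrocytes and 0 counts in every cortex library, and was at least 127-fold higher (adjusted p = 0.00315, kept without any 1 library). Pcdhgb7 had 42.1, 82.7 and 9.70 CPM in astrocytes, against 0 to 8.11 in cortex (3.49 ± 1.102, adjusted p = 0.0194), and Pcdhgb6 had 58.3, 14.6 and 8.03 CPM, against 0 to 5.02 (3.72 ± 1.32, adjusted p = 0.0341). Both groups were separate for these 2 genes, yet the Pcdhgb7 call was lost without astrocyte replicate 2 (adjusted p = 0.115) and that of Pcdhgb6 without astrocyte replicate 1 or cortex replicate 1, 3, 5 or 6 (adjusted p up to 0.199). Other calls rested on 1 library. Pcdhga12 had 0, 182 and 24.7 CPM, with 88.1% from astrocyte replicate 2 and an adjusted p of 0.0217 that became 0.354 without it. Pcdhga3 had 0, 130 and 7.73 CPM, with 94.4% from that replicate and an adjusted p of 0.0354 (0.979 without it; the call was also lost without cortex replicate 1, 2, 3, 5 or 6). Pcdha2 had 1.405, 0 and 28.6 CPM, against 0 to 0.456 in cortex (4 counts in all, adjusted p = 0.0118), with 95.3% from astrocyte replicate 3. That call held in the 7 fits without 1 library in which the gene passed the filter, and DESeq2 did not make it. Without astrocyte replicate 3 the gene was not tested, so those fits cannot show whether the call rests on that library. Pcdhb18, the clustered gene with the highest level per kilobase in astrocytes, had 0, 182 and 8.39 CPM and was not called.

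Set against each other, Ai47 and Ai14 aSMCs differed in 25 of 70 members (background 25.6%), 1 higher and 24 lower in Ai47 aSMCs (backgrounds 9.55% and 16%). The higher one was Pcdh7, and the lower ones were Pcdh1, Pcdh10 and 22 of the 43 tested clustered genes, 15 of them among the 22 gamma genes (68.2%) and 7 among the 16 beta genes (43.8%). No classical cadherin was called by edgeR (3 at an unadjusted p under 0.05; 2 higher with DESeq2), although Cdh4 had means of 119 and 3.76 CPM in the 2 groups. The median over the clustered genes was -3.63 (-3.52 at bounds), against -0.42 over all tested genes. Without Ai14 replicate 8 the count fell to 8, and with the 6 Ai47 libraries summed only Pcdh1 was called. Among the clustered genes, Pcdhgb1 gave Ai14 over Ai47 aSMCs a ratio of 1461 (95% Clopper-Pearson interval 261 to 57792), and Pcdhgb8 one of 329 (58.2 to 13076), each from 1 Ai47 count, and Pcdhga6, with 0 counts in Ai47 aSMCs, was at least 81.3-fold lower there. Without Ai14 replicate 8 the ratios were 736 and 42.8, and without Ai14 replicate 7 the Pcdhga6 bound was 4.26-fold. The call for Pcdhgb8 was lost without Ai14 replicate 8 (adjusted p = 0.292) and that for Pcdhga6 without Ai14 replicate 7 (adjusted p = 0.334). Reporter line, depth and library handling differ between the 2 groups and cannot be told apart.

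Against astrocytes, Ai47 aSMCs differed in 34 of 70 members (background 49.9%), 8 higher (background 26.1%) and 26 lower (background 23.8%), with 3 higher and 32 lower when libraries were scaled by their totals alone. Ai14 aSMCs differed in 12 (background 17.1%), 10 higher (background 13.6%) and 2 lower (background 3.56%). Cdh6 was higher in both, by 6.49 ± 1.32 in Ai47 (adjusted p = 0.000495) and 8.03 ± 1.47 in Ai14 aSMCs (adjusted p = 0.000817), with 0, 0 and 1.01 CPM in astrocytes. Pcdh18 too was higher in both, by 2.49 ± 0.78 (adjusted p = 0.0125; 0.0559 with the Ai47 libraries summed) and 3.35 ± 0.91 (adjusted p = 0.015; up to 0.081 without either Ai14 library), against 2.72, 6.47 and 36.3 CPM in astrocytes. Cdh26 was lower in both, by -8.05 ± 1.27 in Ai47 (adjusted p = 3.82e-05; 0.0584 summed) and -6.62 ± 1.95 in Ai14 aSMCs (adjusted p = 0.0239; up to 0.188 without either Ai14 library). Pcdh1 was higher in Ai14 aSMCs by 5.69 ± 1.06 (adjusted p = 0.000942) and Cdh4 in Ai47 aSMCs by 4.58 ± 1.57 (adjusted p = 0.0202; 0.107 summed). Pcdhgb1, at 0 counts in astrocytes, was at least 133-fold higher in Ai14 aSMCs (adjusted p = 0.00208; 64.2-fold without astrocyte replicate 3). Among clustered genes, 1 was higher (2.33%, background 26.1%) and 20 lower (46.5%, background 23.8%) in Ai47 aSMCs than in astrocytes, and 5 were higher (11.6%, background 13.6%) and 1 lower (2.33%, background 3.56%) in Ai14 aSMCs. With the Ai47 libraries summed, 6 members were called against astrocytes, of which Cdh6, Pcdh7, Pcdh15, Pcdh19 and Pcdhga2 were higher and Pcdh10 lower. Ai47 replicate 4 carried 90.9% of the Ai47 CPM of Pcdh15, and replicate 3 carried 96.3% of that of Pcdhga2. The 5 members called against cortex with opposite signs in Ai47 aSMCs and astrocytes fell into 2 sets. Cdh6 and Pcdh7 were higher in Ai47 aSMCs and lower in astrocytes, by -3.22 ± 1.12 (adjusted p = 0.0311; up to 0.0687 without astrocyte replicate 1 or 2 or cortex replicate 6) and -3.17 ± 1.14 (adjusted p = 0.0366; up to 0.0584 without astrocyte replicate 1 or 2). Pcdhga3, Pcdhgb6 and Pcdhgb7 were lower in Ai47 aSMCs and higher in astrocytes. Pcdh18 was the only member higher in Ai47 aSMCs and in astrocytes, where it was higher by 1.89 ± 0.67 (adjusted p = 0.0334; up to 0.932 without astrocyte replicate 3 or cortex replicate 1, 2, 3, 5 or 6). In a fit of Ai14 aSMCs and astrocytes alone, 0 members were called (15 at an unadjusted p under 0.05).

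Of 16 catenins and adherens junction genes, the partners of the cadherins, 3 were higher and 8 lower in Ai47 aSMCs (50.6% of all tested genes called), 2 higher and 1 lower in Ai14 aSMCs (5.97%) and 2 higher and 8 lower in astrocytes (34.5%), each against cortex. Ctnna3, the alpha-T-catenin known from heart muscle, had 225 to 437 CPM in Ai47 aSMCs, 27.1 and 34.2 in Ai14 aSMCs and 0, 0 and 0.101 in astrocytes, against 0.198 to 0.796 in cortex (log2 fold changes of 9.497 and 6.05 in Ai47 and Ai14 aSMCs, adjusted p = 1.33e-10 and 2.22e-06). The neuronal alpha-catenin Ctnna2 was lower in both (-10.44 and -5.79, adjusted p = 1.56e-07 and 0.0189). Vcl, vinculin, which joins catenins to actin under tension, averaged 113 ± 48.5 CPM in Ai47 and 289 ± 22.01 in Ai14 aSMCs, against 13.9 ± 5.55 in cortex (3.02 and 4.38, adjusted p = 5.67e-05 and 0.00013). Ctnnb1, beta-catenin, averaged 18.7 ± 15.3 CPM in Ai47 aSMCs, 120 ± 28.6 in Ai14 aSMCs and 168 ± 40.2 in astrocytes, against 227 ± 104 in cortex, and was called in Ai47 aSMCs alone (-3.60, adjusted p = 2.88e-05).

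Of 23 superfamily genes outside the rule, 16 could be tested, with 2 higher and 6 lower in Ai47 aSMCs, 2 higher and 0 lower in Ai14 aSMCs and 5 higher and 4 lower in astrocytes than in cortex. The same shares of all tested genes apply, and in Ai47 aSMCs the count was at the background. Fat1, a giant atypical cadherin, averaged 17.6 ± 14.7 CPM in Ai47 aSMCs and 393 ± 0.405 in Ai14 aSMCs, against 58.6 ± 12.01 in cortex, and so was called in opposite directions (-1.74, adjusted p = 0.00583, and 2.74, adjusted p = 0.00841), as Pcdh1 was. Cdhr3 and Dchs1, the first known from ciliated airway cells, averaged 100.1 ± 43.1 and 221 ± 133 CPM in astrocytes, against 0.038 ± 0.0931 and 4.32 ± 3.71 in cortex (adjusted p = 1.55e-05 and 0.000113). Cdh5, which the rule left out, had 1.14 to 3.88 CPM in Ai47 aSMCs, 17.03 and 18.99 in Ai14 aSMCs and 0 to 1.14 in astrocytes, against 15.6 to 44.3 in cortex. Of 16 genes that cleave cadherins or control the clustered arrays, 5 were higher and 2 lower in Ai47 aSMCs, 0 in Ai14 aSMCs (1 at an unadjusted p under 0.05; 0 with DESeq2) and 1 in each direction in astrocytes, against the same backgrounds of 50.6%, 5.97% and 34.5%. The sheddase Adam10 averaged 812 ± 139 CPM in Ai47 aSMCs, 19.4 ± 3.49 in Ai14 aSMCs and 42.5 ± 15.3 in astrocytes, against 25.0 ± 14.8 in cortex, and the cohesin release factor Wapl 648 ± 78.6, 69.0 ± 12.4 and 60.8 ± 75.1 CPM, against 40.8 ± 12.6 (adjusted p = 1.46e-08 and 2.34e-06 in Ai47 aSMCs against cortex). Ctcf, which loops enhancers to the clustered promoters, averaged 20.3, 25.4 and 13.04 CPM in the same groups, against 19.7 in cortex, and was called in no comparison.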

How the data were processed

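RNA-seq of 17 mouse libraries was analysed from 1 matrix of deposited gene counts, raw whole numbers per gene symbol with no normalization by the authors. The submitters' processing notes name Trim Galore 0.6.7, FastQC 0.11.9, MultiQC 1.13, Salmon 1.4.0 and the GRCm38 genome, whereas the study's methods name TopHat, htseq-count and DESeq2. Which of these made the matrix, its annotation and its use of strand were not given. The sorted aSMC protocol of the study covers SMACreER:Ai47 mice given tamoxifen, with CD31 and CD45 used for negative selection. The cortex is a homogenate of WT mice per the labels, while the study's text has it from the dissociated cortices of the sort, and which holds was not settled.

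Levels are CPM with TMM factors, per kilobase of exon where genes are compared (exons and coordinates from GENCODE M21, GRCm38, matched by symbol). Genes passed filterByExpr (minimum count 10, total 15), and 1 quasi-likelihood model over all 4 groups gave 6 comparisons, with Benjamini-Hochberg adjustment over 14927 genes at 0.05 (R 4.3.3, edgeR 4.0.16, limma 3.58.1). DESeq2 1.42.0 was an alternative, as were other scalings, no filter, fits of 2 groups, the 6 Ai47 libraries as 1, a replicate block and leaving out each library. A gene at 0 in a group was given a bound from 3 counts over the group, and ratios of 1 to 3 counts have 95% Clopper-Pearson intervals. The script was tested on simulated counts. These were drawn independently for each library, so that test does not cover the equal counts shared by the Ai47 libraries. Python 3.11.15, pandas 2.3.3, scipy 1.17.1 and matplotlib 3.10.9 were used for summaries and plots. Promoter windows of 250 bases came from RefSeq (GRCm38.p6), and 22 of the 91 members matched.

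Members and lists were chosen with earlier results of these data known. Named genes were the 3 highest per kilobase in each class and group, the 6 largest calls in each direction, members called with opposite signs, members called between the aSMC groups and, of each list, the 2 highest and the 2 most changed. Cdh1, Pcdh17, Pcdh11x, Pcdhb18, Foxj1 and Ctcf were named after their values were seen.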

Additional observations from a re-analysis of the deposited data

Results flagged for a closer look

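Among 64 sets of values, 12 had 1 library far from the rest of its group by Dixon's criterion. That criterion assumes normal values, whereas these are untransformed CPM, some from very few counts, and sums were checked beside their own members. The 12 can therefore not be set against a rate expected by chance. In Ai47 aSMCs, replicate 1 had 121.447 CPM of Cdh13, which also set the atypical cadherin sum at 121.918, and 1.99093 CPM of Pcdhgc3. Replicate 2 held the only Pcdhgb1 count (0.0569845 CPM). Replicate 3 was high in Pcdh19 (29.9402 CPM) and Pcdh10 (0.851956 CPM). Replicate 4 was high in Cdh26 (0.773692 CPM), Pcdh17 (9.35799 CPM) and the sum of the 3 other protocadherins (4.75268 CPM). Replicate 5 had the lowest sum over all members, 504.238 CPM. In cortex, replicate 5 held the only Cdh26 counts (0.516596 CPM) and replicate 3 was high in Pcdhgb1 (29.323 CPM).

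Pcdh1 went opposite ways against cortex in the 2 aSMC groups, and the direct contrast of Ai47 with Ai14 aSMCs gave a log2 fold change of -9.2157 (edgeR, adjusted p = 4.80e-07).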

How the results depend on the processing

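Of the 632 alternative values computed for 80 results on single members, 489 kept direction and side of the threshold, 143 kept direction only and 0 reversed. The number of members called moved by over 1.5 times in these cases, for which the shares over all tested genes were not computed. Scaling by library totals alone called 17 members in astrocytes against cortex (8 higher, 9 lower). Under it the median log2 fold change of all tested genes was -1.50, 1.18 and 0.80 in Ai47 aSMCs, Ai14 aSMCs and astrocytes against cortex. It was -1.89 in Ai47 aSMCs against astrocytes and -2.60 against Ai14 aSMCs. In the main fit these medians were -0.16, 0.32, -0.08, 0.22 and -0.42 in the same order. Without a filter 2 were called in Ai14 aSMCs against cortex, and with DESeq2 13 (2 higher, 11 lower). Fits of only the 2 groups compared called 18, 15 (3 higher, 12 lower) and 15 members in Ai47 aSMCs, Ai14 aSMCs and astrocytes against cortex, 15 in Ai47 aSMCs against astrocytes and 0 in Ai14 aSMCs against astrocytes (15 at an unadjusted p under 0.05). With the Ai47 libraries as 1 library, 6, 6 and 1 were called against cortex, astrocytes and Ai14 aSMCs. Without cortex replicates 4 to 6, chosen after seeing the data, 2 were called in Ai14 aSMCs and 13 in astrocytes against cortex. Leaving out each library gave 36 to 42 calls in Ai47 aSMCs against cortex, 1 to 3 in Ai14 aSMCs against cortex (lowest without Ai14 replicate 7 or 8), 16 to 26 in astrocytes against cortex (lowest without astrocyte replicate 2), 24 to 34 in Ai47 aSMCs against astrocytes (lowest without astrocyte replicate 3), 4 to 13 in Ai14 aSMCs against astrocytes and 8 to 19 in Ai47 against Ai14 aSMCs (both lowest without Ai14 replicate 8). Same-numbered libraries did not deviate together (correlations of -0.0447 to 0.0351), and differently numbered ones were near 0 as well. Libraries of different cell types need not deviate together even when they share an animal. The correlations therefore cannot show whether the numbers are pairs. A replicate block called 22, 5 and 8 members in Ai47 aSMCs against cortex, astrocytes against cortex and Ai47 aSMCs against astrocytes, and the same libraries unblocked gave 6 for each of the last 2. Apart from fits with fewer samples, the cause of these moves was not tested. Depth limits the zero-count bounds, since 3 counts over a group stand for 0.0213 CPM in Ai47 aSMCs, 0.0456 in Ai14 aSMCs, 0.0782 in astrocytes and 0.0689 in cortex.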
